A study of Mus musculus with 13 samples.

Results

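Proximal tubule identity factors and enzymes are represented here by 6 genes of 35013 gene symbols in a table of estimated counts. They were taken by symbol, and they and the gene lists below were chosen with earlier results of these data known. Counts of called genes among them are therefore a description. All 6 were among the 16468 genes with enough counts to be tested. Hnf4a and Pax8 encode transcription factors, Kap encodes an abundant secreted protein of the tubule, and Miox, Gatm and Acsm2 encode metabolic enzymes. Each had at least 528 counts in every library.

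The proximal tubule reclaims most of the filtered load of the kidney and also works as a metabolic organ. HNF4A, a nuclear receptor, drives the maturation of its cells and the expression of their transporters and enzymes, whereas PAX8, a paired-box factor, marks the nephron lineage from its origin and stays on in adult tubule epithelium. Mature tubule cells break down inositol through MIOX, an oxygenase that itself carries iron, make the precursor of creatine through GATM, activate medium-chain fatty acids and benzoate through ACSM2, and in rodents produce KAP under the control of androgen.

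The libraries hold nascent RNA of kidneys from female mice, and 13 were analysed: 4 labelled Spns1 KO, 5 WT and 4 FeO (iron overload). According to the methods, mice of every group carried Megalin3'Cre-Ert and 1 Uprt flox/+ allele and received tamoxifen and 4-thiouracil. UPRT, expressed where the megalin promoter drives Cre, incorporates 4-thiouracil into new RNA, which was then biotinylated, captured and selected for poly-A tails. Spns1 KO mice were Spns1 flox/flox, and their WT and FeO littermates Spns1 flox/+ in the methods but Spns1 WT in the sample labels. FeO mice received 12 mg of iron sucrose by the labels, or that weight of elemental iron by the methods, on each of 3 days and were killed 1 week later. The age of the mice and the number of animals behind a library are not given in the sources used here, and p-values measure only the spread between libraries.

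Levels are given as CPM, the conventional relative unit of counts per library total, with totals adjusted by edgeR's TMM factors, from libraries of 23068023 to 71296474 counts. The targeted gene Spns1 was at 36.6 to 59.0 CPM in the libraries labelled Spns1 KO, 39.2 to 62.9 in WT and 39.0 to 58.7 in FeO, so its counts did not separate the groups. Against WT, the fitted log2 fold change of Spns1 was -0.31 ± 0.18 (standard error) in Spns1 KO (adjusted p = 0.225, edgeR). The paper reports deletion of Spns1 RNA and protein in kidneys of such knockouts. By its methods the loxP sites flank exon 3, and reads of that exon alone were not examined, so the cause of these counts was not tested. Below, "Spns1 KO" means the libraries so labelled. Levels of 10 proximal tubule markers, such as the endocytic receptor genes Lrp2 and Cubn, were read beside the label. All 10 were detected, which does not test the label, since RNA of the whole kidney would hold them too. Their summed level was 2824 to 3898 CPM in WT, 6046 to 6813 in Spns1 KO and 1773 to 4003 in FeO. Slc34a1 had the highest WT mean of the 10, at 1608 CPM, and Slc7a13 was very low, at 0.0772 to 2.45 CPM in WT. Markers of other kidney cells were present too, at sums in WT of 1300 to 2767 CPM for the loop of Henle, 431 to 1855 for the distal tubule, 363 to 618 for collecting duct and 134 to 242 for podocytes. FeO 1 stood apart from the other FeO libraries, with the lowest proximal tubule sum (1773 CPM against 2771 to 4003) and the highest collecting duct (1549 against 519 to 923) and podocyte sums (582 against 245 to 434). In captured bulk RNA, fewer cells of a type and less RNA per cell cannot be told apart.

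In GRCm38, Hnf4a lies on the plus strand of chromosome 2 from 163506808 to 163572910, where the antisense gene Hnf4aos overlaps its exons. Pax8 lies on the minus strand of the same chromosome from 24420560 to 24475599, where Gm13415 overlaps its exons on the other strand and other genes share 5.1% of its 31-base sequences. Whether strand was used in counting is not given in the sources used here, so reads of these genes and their partners cannot be told apart, and the partners were not analysed here. Gatm lies on chromosome 2 from 122594467 to 122611303, Kap on chromosome 6 from 133849851 to 133853762, Miox on chromosome 15 from 89334398 to 89337015 and Acsm2 on chromosome 7 from 119554340 to 119600690. Kap, Miox and Gatm shared no 31-base sequence with another gene and Acsm2 1.4%.

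The 250 bases before each RefSeq start of the 6 genes (GRCm38.p6) were taken from RefSeq, where all 6 matched, and searched on both strands for CAAAGTCCA (a site of HNF4 factors, present in 0.384% of the 32851 promoter windows of that length) and AGAACA (a steroid receptor half-site, 16.1%). Neither motif occurred in a window of the 6 genes, which says no more than that these letters are not there. The windows of Kap, Miox and Gatm are shown, as far as they lie outside annotated exons, because these are the 3 genes that were higher together in Spns1 KO. No capitals are used, since no motif was found.
Kap (chr6:133853763-133853917, minus strand): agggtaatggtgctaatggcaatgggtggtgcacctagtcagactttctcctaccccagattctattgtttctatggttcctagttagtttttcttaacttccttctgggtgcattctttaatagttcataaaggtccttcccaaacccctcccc
Miox (chr15:89334223-89334397, plus strand): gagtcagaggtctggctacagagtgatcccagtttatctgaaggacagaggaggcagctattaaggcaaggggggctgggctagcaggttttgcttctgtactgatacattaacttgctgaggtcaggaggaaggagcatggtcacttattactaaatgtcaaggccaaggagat
Gatm (chr2:122611304-122611527, minus strand): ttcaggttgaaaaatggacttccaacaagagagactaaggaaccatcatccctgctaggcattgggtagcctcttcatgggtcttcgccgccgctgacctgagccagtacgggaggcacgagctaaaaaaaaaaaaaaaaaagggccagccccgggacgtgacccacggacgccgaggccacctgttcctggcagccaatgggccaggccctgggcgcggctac

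Kap, Miox and Gatm rose in Spns1 KO, by 4.98-, 3.26- and 3.18-fold against WT, while Hnf4a had nearly the same mean and the differences of Pax8 and Acsm2 did not pass the limits. In FeO, Kap rose 2.87-fold, but it did not pass the limits without FeO 4. Pax8 and Acsm2 fell in FeO to 0.388 and 0.50 of WT, while Hnf4a, Miox and Gatm did not pass. Between the models themselves, Miox and Acsm2 were higher in Spns1 KO than in FeO, by 2.38- and 3.41-fold. A gene was called when the quasi-likelihood test of edgeR gave it an adjusted p under 0.05 (Benjamini-Hochberg, over all genes tested) and it differed by more than 0.5 on the log2 scale. By these limits, 3 of the 6 genes were called in Spns1 KO, all higher, where 14.0% of all tested genes were called higher and 7.55% lower. Of the 6 genes, 1 was called higher and 2 lower in FeO, where the shares of all genes were 22.4% and 19.7%. Between Spns1 KO and FeO, 2 of the 6 were called, both higher in Spns1 KO, against 6.76% of all genes higher and 8.10% lower. With DESeq2 the count in Spns1 KO was 5, Pax8 and Acsm2 joining the others, and without FeO 1 the count in FeO was 5, Miox and Gatm joining. With the dependence of counts on transcript length and GC content fitted and taken out library by library (below, the length and GC trend), 1 gene, Pax8, was called in FeO. The count between the models was 1, Acsm2 alone, with those 2 groups alone, with a replicate block or without Spns1 KO 1, 2 or 3. The shares of all genes, here and below, belong to the main edgeR fit of all libraries. Those under the alternatives are not reported here, so counts under alternatives cannot be set against the shares given. A gene that missed the limits is not thereby shown to be at the same level.

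**Figure D1:**
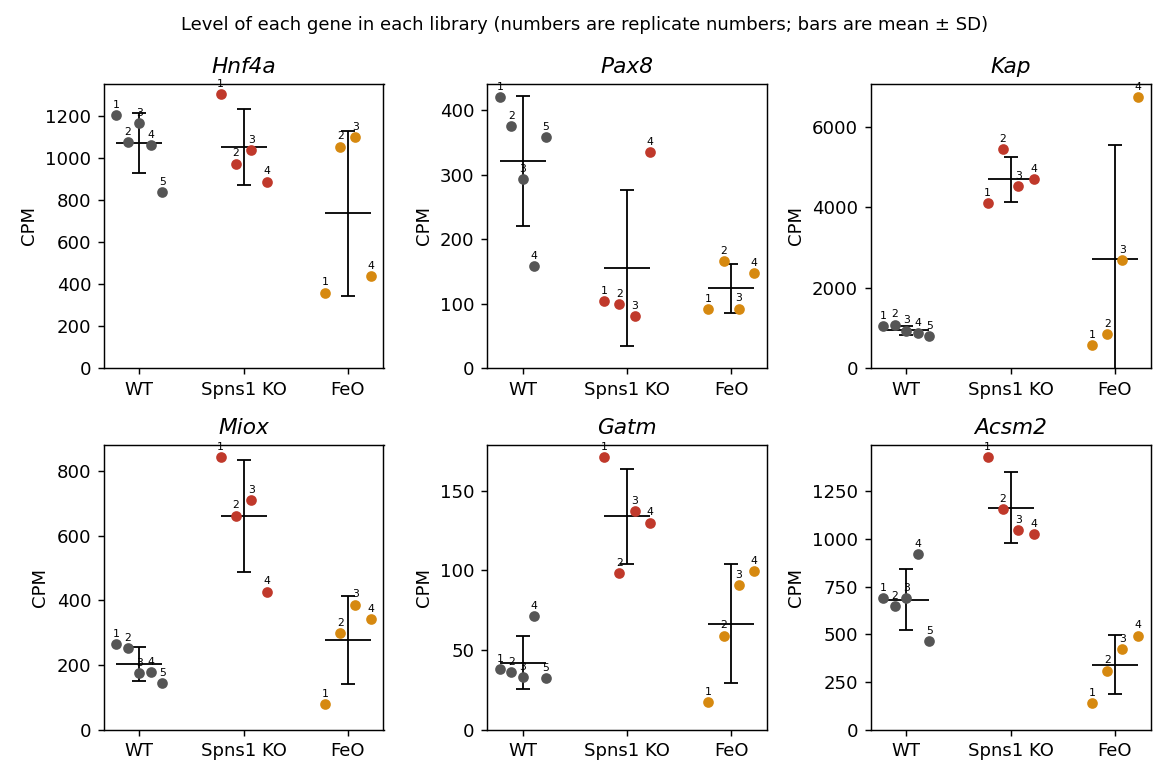
Level of each of the 6 genes in CPM (vertical axes, linear from 0) in every library, by group, with points numbered by replicate and bars for the mean ± SD (the lower bar of Kap in FeO runs below 0 and is cut by the axis). Kap, Miox, Gatm and Acsm2 in Spns1 KO lie above every WT library, Pax8 lies low in 3 of the 4 Spns1 KO libraries, and the FeO libraries are spread for Kap between 582 and 6728 CPM.

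Hnf4a was at 1306, 974, 1038 and 888 CPM in Spns1 KO 1 to 4, at 1205, 1077, 1166, 1061 and 839 in WT 1 to 5, and at 360, 1054, 1100 and 437 in FeO 1 to 4. The Spns1 KO and WT ranges overlapped almost entirely. FeO was split, with FeO 1 and FeO 4 below every other library and FeO 2 and FeO 3 inside the WT range. The log2 fold change was -0.024 ± 0.30 (standard error) in Spns1 KO (adjusted p = 0.961) and -0.54 ± 0.30 in FeO (adjusted p = 0.152, edgeR), neither of which was called under any of the alternatives tried. The FeO difference was -0.29 without FeO 1, -0.33 without FeO 4, -0.74 without FeO 2 and -0.79 without FeO 3 (adjusted p from 0.0547 to 0.417). In the direct comparison Spns1 KO exceeded FeO by 0.51 ± 0.31 on the log2 scale, which did not pass the limits either (adjusted p = 0.267).

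Pax8 was at 104, 99.3, 80.9 and 335 CPM in Spns1 KO 1 to 4, at 420, 375, 293, 159 and 358 in WT 1 to 5, and at 92.0, 166, 92.6 and 147 in FeO 1 to 4. Most WT libraries and Spns1 KO 4 were high, whereas WT 4, all FeO libraries and the other Spns1 KO libraries were low. Pax8 fell by 1.37 on the log2 scale in FeO (standard error 0.40, adjusted p = 0.0127 from edgeR), although FeO 2 lay slightly above WT 4. This call was kept under every alternative, with adjusted p from 0.000991 to 0.0447, the latter without FeO 1 (-1.23 ± 0.45). In Spns1 KO the log2 fold change was -1.05 ± 0.40 and missed the limit (adjusted p = 0.0657). That outcome rested on single libraries, since without Spns1 KO 4 the difference was -1.76 ± 0.30 and was called (adjusted p = 0.00071), and without WT 4 it was -1.20 and also called (adjusted p = 0.0452). Spns1 KO and FeO differed by 0.32 ± 0.41, which did not pass (adjusted p = 0.619), and without Spns1 KO 4 this difference changed sign to -0.39.

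Kap rose in both models, in Spns1 KO under all alternatives but in FeO not under all of them. Its level was 4102, 5453, 4524 and 4697 CPM in Spns1 KO 1 to 4, against 1038, 1082, 937, 864 and 793 in WT 1 to 5. Every Spns1 KO library was far above every WT library, and the mean rose from 943 ± 119 CPM (SD, n = 5) to 4694 ± 565 (SD, n = 4). The log2 fold change was 2.32 ± 0.51 (adjusted p = 0.00543, edgeR), and it was called under all alternatives with values from 1.76 to 2.38. In FeO 1 to 4, Kap was at 582, 839, 2679 and 6728 CPM, so that 1 library lay below WT, 1 inside its range and 2 above it, and FeO 4 exceeded every Spns1 KO library. The fitted rise in FeO of 1.52 ± 0.50 (adjusted p = 0.0227) therefore rested on FeO 4: without it the log2 fold change was 0.56 ± 0.37 and was not called (adjusted p = 0.225). It was 1.87 without FeO 1 (adjusted p = 0.00455) and 0.90 (adjusted p = 0.122) after removal of the length and GC trend. The difference between Spns1 KO and FeO, 0.79 ± 0.53, did not pass the limits (adjusted p = 0.311), but it was 1.78 and was called without FeO 4 (adjusted p = 0.0112).

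Miox, whose product glucuronate feeds the pentose pathway, was at 842, 662, 709 and 427 CPM in Spns1 KO 1 to 4 and at 265, 253, 174, 177 and 145 in WT 1 to 5. All Spns1 KO libraries were above all WT libraries, with means of 660 ± 173 CPM (SD, n = 4) and 203 ± 53.0 (SD, n = 5). The log2 fold change was 1.70 ± 0.35 (adjusted p = 0.00376, edgeR) and stayed called with any single library left out and under all but 1 of the other alternatives. In FeO 1 to 4, Miox was at 79.4, 299, 387 and 343 CPM, FeO 1 below every WT library and the others above them. The FeO difference of 0.45 ± 0.35 did not pass (adjusted p = 0.299). It passed without FeO 1, at 0.78 ± 0.24 (adjusted p = 0.0208), and took the other sign, -0.091, with the length and GC trend removed. Every Spns1 KO library was also above every FeO library, and that difference, 1.25 ± 0.37, was called (adjusted p = 0.0358), as it was without FeO 1 (0.95 ± 0.26). It was no longer called without Spns1 KO 1, 2 or 3, with adjusted p of 0.089, 0.0681 and 0.057, or when the fit held those 2 groups alone (0.0875).

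Gatm, the lowest of the 6 per kilobase of transcript in WT, was at 171, 98.4, 137 and 130 CPM in Spns1 KO 1 to 4 and 38.0, 35.9, 32.8, 71.5 and 32.6 in WT 1 to 5. The ranges did not overlap, although WT 4 stood well above the other WT libraries. Gatm rose by 1.67 ± 0.38 on the log2 scale (adjusted p = 0.0063, edgeR), a call that held under all alternatives with values from 1.53 to 1.96. In FeO 1 to 4 the gene was at 17.3, 59.1, 90.6 and 99.5 CPM, again with FeO 1 below all WT libraries, FeO 2 inside their range and the others above it. The FeO difference was 0.66 ± 0.37 and not called (adjusted p = 0.159), whereas without FeO 1 it was 1.00 ± 0.26 and without WT 4 it was 0.95, both called (adjusted p = 0.00992 and 0.0486). Spns1 KO exceeded FeO by 1.01 ± 0.40, which did not pass (adjusted p = 0.0946), although DESeq2 called this difference (adjusted p = 0.0497).

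Acsm2 lay above WT in Spns1 KO and below it in FeO, and of these differences the fall in FeO was called. Its level was 1427, 1157, 1046 and 1026 CPM in Spns1 KO 1 to 4, 690, 648, 689, 919 and 464 in WT 1 to 5, and 138, 309, 424 and 493 in FeO 1 to 4. Spns1 KO lay entirely above WT, and FeO lay below WT except that FeO 4 was slightly higher than WT 5. The fall in FeO, by 1.00 on the log2 scale (standard error 0.30), was called (adjusted p = 0.0146, edgeR) and held with any single library left out (-0.72 without FeO 1), but with the length and GC trend removed it was -0.47 and not called (adjusted p = 0.179). In Spns1 KO the log2 fold change of 0.77 ± 0.29 missed the limit (adjusted p = 0.0674). It was called with DESeq2 (adjusted p = 0.0312), with the 2 groups alone (0.0121), with the trend removed (0.0118), and without WT 4 or FeO 1 (0.0474 and 0.0134). The direct test of Spns1 KO against FeO gave 1.77 ± 0.32 (adjusted p = 0.00457), and this was called under all alternatives with values from 1.51 to 2.00.

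**Figure D2:**
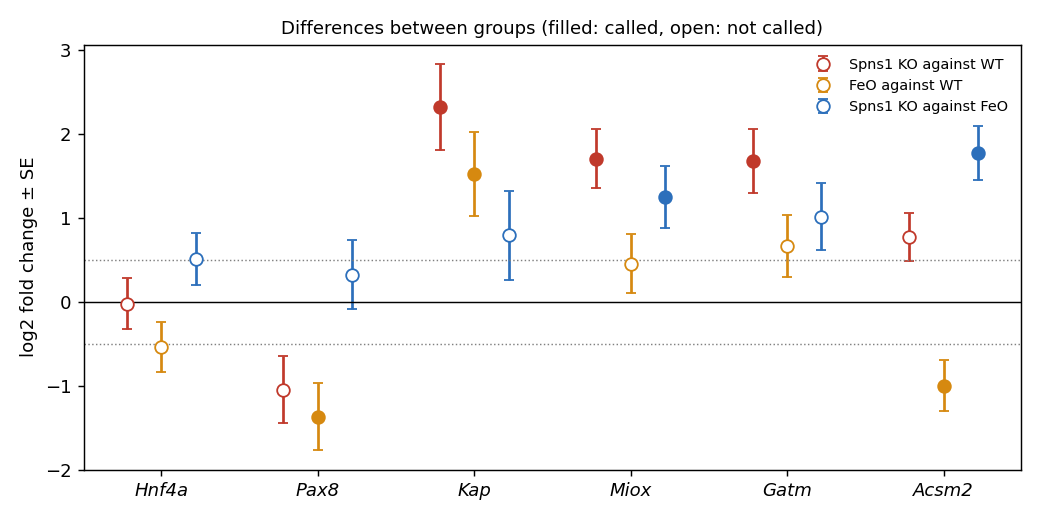
Log2 fold change ± standard error (vertical axis) of the 6 genes in Spns1 KO against WT, FeO against WT and Spns1 KO against FeO, where filled points were called, open points were not, and dotted lines mark the limits of 0.5. Kap, Miox and Gatm are high in Spns1 KO at 1.67 to 2.32, and Acsm2 has its FeO value at -1.0 and its Spns1 KO value at 0.77.

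Per kilobase of the longest annotated transcript, the WT means put Kap first at 1334 ± 169 CPM per kilobase (SD, n = 5), followed by Hnf4a at 245 ± 32.6 and Miox at 179 ± 46.9. Hnf4a lay above Miox, and Miox above Acsm2 (101 ± 24), within each WT library, although the ranges over libraries overlapped. Acsm2 and Pax8 (94.7 ± 30.0) were not separable by their spread, and their order differed between WT libraries. Gatm was lowest at 17.6 ± 6.92, below all others in every WT library. This order depends on the length chosen: with the median transcript length Hnf4a (1546) was close to Kap (1611), and Acsm2 (1139) was above Miox (258). In Spns1 KO the order of the means by the longest transcript was Kap (6640), Miox (584), Hnf4a (241), Acsm2 (173), Gatm (56.1) and Pax8 (45.7). The last 2 were not separable, since Pax8 had an SD of 35.7 and lay above Gatm in Spns1 KO 4 (99.0 against 54.6).

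Across the 13 libraries the log2 levels of the enzymes and Kap varied together, with Pearson's r of 0.90 for Miox and Gatm, 0.86 for Kap and Gatm, 0.84 for Kap and Miox, 0.73 for Miox and Acsm2, 0.70 for Gatm and Acsm2 and 0.58 for Kap and Acsm2. After the group means were taken off, r was 0.93 for Gatm and Acsm2, 0.83 for Miox and Acsm2, 0.77 for Miox and Gatm and 0.64 to 0.75 for Kap with the enzymes. Pax8 did not share that pattern, with r of -0.40 to 0.075 against Kap and the enzymes, and with -0.092 to 0.11 within groups. Hnf4a had r of 0.016 with Kap and 0.33 to 0.66 with the enzymes, and within groups the values with the enzymes were 0.49 to 0.69. These coefficients describe 13 points that share scaling factors, group labels and the low proximal tubule sum of FeO 1.

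Of 9634 genes with a mean of at least 10 CPM, those whose log2 levels ran closest to Hnf4a over the 13 libraries were Inpp5b, Fam83g and Itpripl1 (r of 0.953, 0.946 and 0.935). Pax8 was closest to Tob1, Sox4 and Smad1 (0.984, 0.977 and 0.976). Kap was closest to Gbp3, Rida and Prxl2a (0.980, 0.975 and 0.968), and Miox to Cfb, Aadac and Ldhd (0.973, 0.956 and 0.956). Gatm was closest to Slc22a29, Clec2h and Papss2 (0.950, 0.944 and 0.929), and Acsm2 to Kcnj15, Nox4 and D630045J12Rik (0.960, 0.950 and 0.948). Each was picked as a highest value among the 9634 genes over only 13 libraries, with group differences left in. The coefficients are therefore a description, and shared regulation was not tested.

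**Figure D3:**
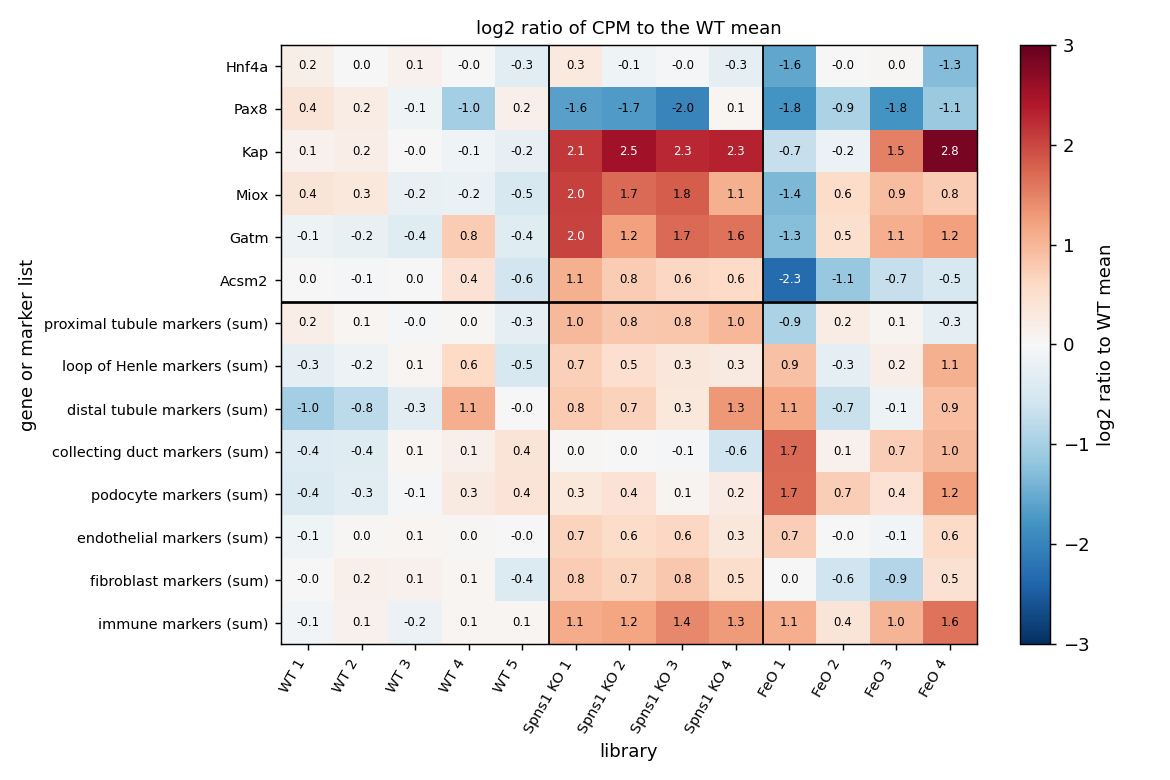
Log2 ratio of CPM to the WT mean (colour and printed value) for the 6 genes and for the summed levels of 8 marker lists (rows) in each of the 13 libraries (columns). FeO 1 is low for Miox, Gatm, Acsm2 and the proximal tubule sum and high for the collecting duct and podocyte sums, and all Spns1 KO libraries are above the WT mean for Kap, Miox, Gatm, Acsm2 and 7 of the 8 marker sums, the exception being collecting duct.

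Marker levels also differed between the groups. Of the 10 proximal tubule markers, 7 rose and none fell in Spns1 KO, where 14.0% of all genes were called higher, among them Slc22a8 and Slc22a6, transporters of organic anions (1.70 ± 0.33 and 1.24 ± 0.28 on the log2 scale), and their median log2 fold change was 0.88 against -0.045 over all genes. In FeO, Aqp1, a water channel (1.20 ± 0.20), and Slc22a6 (0.74 ± 0.28) rose and Slc5a12, a monocarboxylate transporter (-1.46 ± 0.44), fell, with a median of the 10 of -0.32 against -0.011. These 2 higher and 1 lower of 10 were no larger shares than the 22.4% and 19.7% of all genes. The immune marker sum was 180 to 227 CPM in Spns1 KO and 107 to 255 in FeO, above the 73.0 to 90.2 of WT, with 1 (Cd74) and 4 (C1qa, Cd74, Csf1r and Lyz2) of 5 genes called higher. Fibroblast markers summed to 103 to 126 CPM in Spns1 KO, 54.0 to 79.8 in WT and 39.0 to 98.1 in FeO, and endothelial markers to 181 to 227, 131 to 150 and 136 to 239. Of the 4 endothelial markers, Emcn and Plvap were called higher in both models, and Kdr was called lower in FeO (-0.65 ± 0.19). Loop of Henle markers spanned 1300 to 2767 CPM in WT, 2180 to 2981 in Spns1 KO and 1481 to 3803 in FeO, and distal tubule markers 431 to 1855, 1080 to 2150 and 548 to 1923. Single markers of these lists differed. In Spns1 KO, Umod alone of the 4 loop markers was called (higher), and of the 4 distal markers Pvalb was called higher and Trpm6 lower (-1.09 ± 0.35). In FeO, Cldn16 and Kcnj1 of the loop were called higher and no distal marker was called. Of the collecting duct markers 6 of 7 rose in FeO and 2 of 7 in Spns1 KO, and of the podocyte markers 2 of 4 in each. Their sums were 519 to 1549 and 245 to 582 CPM in FeO, 363 to 618 and 134 to 242 in WT, and 314 to 482 and 194 to 247 in Spns1 KO. The collecting duct sums of FeO and WT thus overlapped. No marker was at 0 in all libraries, and the part of these shifts in the results for the 6 genes was not tested.

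Among 15 other transcription factors of the proximal tubule or nephron lineage, 1 rose in Spns1 KO and none fell. Neither was a larger share than the 14.0% and 7.55% of all genes called higher and lower there. It was Esrra, a nuclear receptor for mitochondrial genes, at 0.53 ± 0.17, and it was no longer called with the length and GC trend removed. Of the same 15, 2 rose and 3 fell in FeO, near or below the 22.4% and 19.7% of all genes. Those that fell were Ppara, the fatty acid receptor (-2.68 ± 0.45, adjusted p = 0.000644 from edgeR), Nr1h4, the bile acid receptor (-1.11 ± 0.38), and Lhx1, a factor of the early nephron (-1.0 ± 0.22), whereas Cebpa and Esrra rose by 0.86 ± 0.26 and 0.71 ± 0.17. When FeO 1 was left out, Nr1h4 was no longer called and 2 of the 15 were called lower. Mean levels of Ppara (± SD) were 259 ± 74.5 CPM in 5 WT, 40.5 ± 32.1 in 4 FeO and 168 ± 69.3 in 4 Spns1 KO libraries. The median log2 fold change of the 15 was 0.11 in Spns1 KO and -0.28 in FeO, against -0.045 and -0.011 over all genes. In the direct comparison Ppara was higher in Spns1 KO than in FeO (2.06 ± 0.45) and Cebpa lower (-0.99 ± 0.28).

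Around Gatm, 5 of 14 genes of creatine and arginine metabolism rose in Spns1 KO and 6 in FeO, where 14.0% and 22.4% of all genes were called higher, and none fell in either. Gamt, which methylates the product of GATM to creatine, rose in both, by 1.60 ± 0.27 in Spns1 KO and 1.21 ± 0.27 in FeO (adjusted p = 0.00101 and 0.00263, edgeR), from a low WT level of 1.11 ± 0.284 CPM (SD, n = 5). Ckmt1, a mitochondrial creatine kinase, also rose in both (1.03 ± 0.30 and 1.46 ± 0.30). In Spns1 KO the others were Ass1 and Asl, which make arginine from citrulline (1.24 ± 0.31 and 0.81 ± 0.25), and the creatine transporter Slc6a8 (0.55 ± 0.19). In FeO the other large changes were in Ckb, a cytosolic creatine kinase (1.98 ± 0.32), and Arg2, an arginase (1.39 ± 0.28). Ckb and Arg2 were lower in Spns1 KO than in FeO (-1.32 ± 0.34 and -1.34 ± 0.30), and Slc6a8, Asl and Gldc, a glycine-cleaving enzyme, were higher (0.99 ± 0.20, 0.93 ± 0.27 and 0.83 ± 0.26). The medians over the 14 genes were 0.57 in Spns1 KO and 0.30 in FeO, and with the length and GC trend removed 2 were called in Spns1 KO and 5 in FeO.

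Around Miox, 15 genes of inositol, glucuronate and xylulose handling were followed, of which 6 rose and 1 fell in Spns1 KO and 7 rose and 1 fell in FeO. The shares over all genes were 14.0% higher and 7.55% lower in Spns1 KO, and 22.4% higher and 19.7% lower in FeO. Akr1a1, the reductase that acts on glucuronate, rose by 1.31 ± 0.22 in Spns1 KO and 0.88 ± 0.22 in FeO, and Dcxr, the xylulose reductase, by 1.11 ± 0.25 and 0.95 ± 0.25. Of the inositol transporters, Slc5a11 rose in Spns1 KO (1.28 ± 0.21, and 0.64 ± 0.21 in FeO) and Slc5a3 fell there (-1.29 ± 0.32). Slc2a13, also an inositol transporter, was at -0.75 ± 0.26 in Spns1 KO and missed the limit (adjusted p = 0.0507, edgeR). The mean of Slc5a3 was 1458 ± 729 CPM (SD, n = 5) in WT and 595 ± 76.4 (SD, n = 4) in Spns1 KO, and its fall was not called with the length and GC trend removed. Rgn, a lactonase, rose by 0.98 ± 0.24 in Spns1 KO and 0.73 ± 0.24 in FeO. In FeO, Impa2, a phosphatase that frees inositol, rose by 0.82 ± 0.29, and Inpp1, another phosphatase of the pathway, fell (-0.63 ± 0.15). The medians were 0.43 and 0.63. No gene of the list was called between Spns1 KO and FeO by edgeR, where Slc5a11 (higher) and Slc5a3 (lower) had an unadjusted p under 0.05 and were both called by DESeq2. With the trend on length and GC content removed, 3 of the 15 were called higher in each model and none lower, and with FeO 1 left out 4 were called higher in FeO.

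Around Acsm2, 8 of 14 genes of medium-chain acyl-CoA metabolism and glycine conjugation rose in Spns1 KO, where 14.0% of all genes were called higher, and none fell, with a median log2 fold change of 0.71. The largest rises were in Acadm and Hadh, dehydrogenases of fatty acid oxidation (1.23 ± 0.21 and 1.19 ± 0.25), Glyat, which conjugates acyl groups to glycine (1.02 ± 0.34), and the paralogue Acsm1 (0.95 ± 0.30). Of the 14, 5 rose and 2 fell in FeO, against 22.4% and 19.7% of all genes, so the count that fell was no larger a share than over all genes, and the median was 0.46. Both that fell were paralogues of Acsm2: Acsm5 (-1.10 ± 0.28, adjusted p = 0.00564 from edgeR) and Acsm4 (-3.40 ± 0.92). Acsm4 was very low throughout, at 0.177 to 2.12 CPM in WT and 0.0 to 0.389 in FeO, ranges that overlapped. Another paralogue, Acsm3, rose in FeO by 0.90 ± 0.32, and Keg1, a glycine acyltransferase of the kidney, by 0.93 ± 0.25. The others that rose in FeO were Acadm (0.67 ± 0.21), Hadh (0.76 ± 0.25) and Echs1, an enoyl-CoA hydratase (0.79 ± 0.15). With the length and GC trend removed, 7 were called higher and none lower in Spns1 KO and 5 higher and 2 lower in FeO. Acss1, a mitochondrial acetyl-CoA synthetase, was the gene of this list called between the models (1.32 ± 0.25 higher in Spns1 KO).

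Beside Kap, 12 genes linked to androgen in the kidney were examined, whatever the direction of that link. Of these, 3 rose in Spns1 KO and 5 in FeO (over all genes, 14.0% and 22.4%), and none fell, with median log2 fold changes of 0.40 and 0.65. In Spns1 KO they were Slc7a12, an amino acid transporter (1.81 ± 0.31), the prolactin receptor Prlr (1.21 ± 0.24) and Gusb, a lysosomal glucuronidase (0.65 ± 0.18). In FeO they were Cyp2e1 (1.78 ± 0.51), Cyp7b1 (1.32 ± 0.25), Hsd17b2, which inactivates sex steroids (1.11 ± 0.38), Odc1, which starts polyamine synthesis and also stands in the arginine list (0.93 ± 0.21), and Gusb (0.87 ± 0.18). The summed level of the 12 genes was 700.0 to 797 CPM in WT, 795 to 1254 in Spns1 KO and 703 to 1354 in FeO. Since the list was not split by direction, its counts, medians and sums do not measure a response to androgen, which was not tested. Direct tests between Spns1 KO and FeO were called for Slc7a12 and Prlr (2.14 ± 0.34 and 1.30 ± 0.26 higher in Spns1 KO) and for Cyp2e1 and Cyp7b1 (-2.0 ± 0.55 and -1.60 ± 0.27).

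Of 20 enzymes of amino acid degradation, 9 rose in Spns1 KO and 5 in FeO, and none fell, with medians of 0.68 and 0.51. Against 14.0% and 22.4% of all genes called higher, the FeO count was near the share of all genes. Aadat, which acts on kynurenine and aminoadipate, rose in both models, by 1.64 ± 0.26 and 1.33 ± 0.26, with means (± SD) of 256 ± 42.2 CPM in 5 WT, 647 ± 316 in 4 FeO and 801 ± 74.7 in 4 Spns1 KO libraries. Prodh2, which breaks down hydroxyproline, Sardh, a sarcosine dehydrogenase, and Acy1, an aminoacylase, rose in Spns1 KO by 1.43 ± 0.20, 1.41 ± 0.28 and 1.40 ± 0.37. In FeO, apart from Aadat, the genes that rose were Hpd, an enzyme of tyrosine degradation that uses iron (1.95 ± 0.34), Acy3 and Kynu (0.99 ± 0.32 and 0.99 ± 0.29) and Cth (0.60 ± 0.21). Without FeO 1 the FeO count was 10, and after removal of the length and GC trend 1 of the 20 was called lower in FeO. Between the models, genes that were higher in Spns1 KO included Prodh2, Agxt2 and Dmgdh (1.90 ± 0.22, 1.01 ± 0.24 and 0.97 ± 0.19), and Hpd was lower (-1.43 ± 0.36). Where edgeR called no gene of a list lower against WT, 4 genes had an unadjusted p under 0.05 in that direction, Tfap2b and Acsm4 in Spns1 KO and Slc6a8 and Prodh2 in FeO, and DESeq2 called Acsm4 alone.

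**Figure D4:**
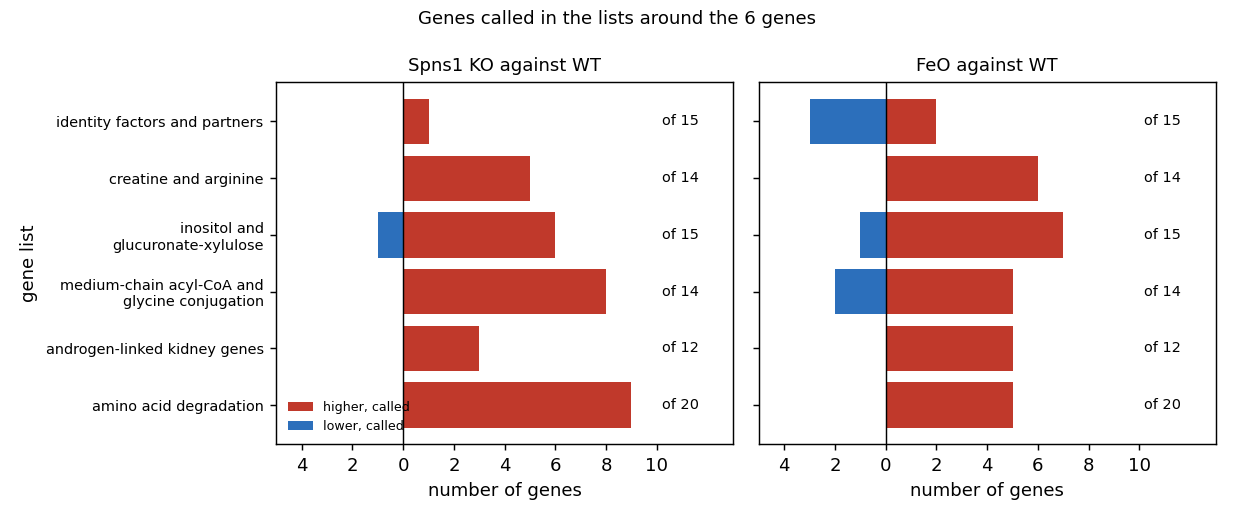
Number of genes called higher (to the right) and lower (to the left) in 6 gene lists, in Spns1 KO against WT and in FeO against WT, with the number of genes tested in each list at the right. The longest bars are those of amino acid degradation (9 of 20) and medium-chain acyl-CoA metabolism (8 of 14) in Spns1 KO, against 14.0% of all genes called higher there, and in FeO 22.4% of all genes were called higher and 19.7% lower.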

How the data were processed

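Nascent RNA of 13 mouse kidney libraries was analysed. The authors deposited estimated counts per gene symbol, without normalization, in a single table, and all its columns belong to these libraries (0 of other samples). Per the labels, reads were handled with bcl2fastq 2.19 and kallisto 0.44.0 on GRCm38, whereas the methods describe alignment with STAR and counting with HTSeq, so the counter is uncertain. The deposited counts were whole numbers, and libraries, grouped by their labels, held 23068023 to 71296474 counts. Genes passing filterByExpr (16468 of 35013) were tested with edgeR 4.0.16 (R 4.3.3) in 1 quasi-likelihood fit of all 13 libraries with TMM factors and a prior count of 2 for log2 CPM. Genes were called at an adjusted p under 0.05 (Benjamini-Hochberg) and a log2 fold change beyond 0.5. ± after a log2 fold change is the standard error. The fit was tested on simulated data. Gene positions and transcript lengths came from GENCODE (GRCm38), and 98.3% of tested genes had a transcript. Promoters came from RefSeq (GRCm38.p6).

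Alternatives were DESeq2 1.42.0, DESeq2 size factors, upper-quartile factors, no filter, the 2 groups alone, removal of length and GC dependence by smooth curves fitted to each library (mgcv 1.9.3; "trend removed"), a replicate block, and each library left out. Counts of lists without FeO 1 or without the trend, and the principal transcript length, were chosen after seeing the data. Named besides the 6 genes were the 4 called genes of each list with the largest change in either model, genes that a count of 5 or fewer in the fit of all libraries covers, and the 3 genes closest to each of the 6 in log2 CPM. The 6 genes and the lists were chosen with earlier results of these data known. Libraries with the same number did not vary together (12 pairs, r of -0.296 to 0.256), so the numbers were not taken to pair them. No libraries of a group were the same within sampling noise. WT 1 and WT 2 were by far the closest pair, with a mean chi-square per gene of 7.8, against 36.3 to 300.8 for the other pairs. Whether these libraries are independent animals is not given in the sources used here, and the cause was not tested. Values of some genes of the lists are not reported here.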

Additional observations from a re-analysis of the deposited data

Results flagged for a closer look

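Levels of the 6 genes were examined in 18 groups of 4 or 5 libraries for a single library far from the rest, where chance alone marks about 1 in 20 groups, and 2 were found. Pax8 in Spns1 KO 4 was at 335 CPM, against 80.9 to 104 in the other libraries so labelled, and the gap to its nearest neighbour took up 0.91 of the group's range. Without it, Pax8 was called lower in Spns1 KO. Kap, Miox, Gatm and Acsm2 in Spns1 KO 4 were at 4697, 427, 130 and 1026 CPM, all above WT, and its proximal tubule marker sum of 6813 CPM was the highest of any library. Gatm in WT 4 was at 71.5 CPM, against 32.6 to 38.0 in the other WT libraries, with a gap of 0.862 of the range. WT 4 also had the lowest Pax8 (159 CPM) and the highest Acsm2 (919 CPM) of the WT libraries. The cause of either was not tested.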

How the results depend on the processing

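The number of the 6 genes called in Spns1 KO against WT was 3, and 5 with DESeq2, and in FeO it was 3, and 1 with the length and GC trend removed. Between Spns1 KO and FeO it was 2, with Gatm joining under DESeq2, and 1 with those 2 groups alone. Leaving out 1 library at a time gave 3 to 5, 2 to 5 and 1 to 3. The low end between the models came without Spns1 KO 1, 2 or 3, and the high ends without WT 4, FeO 1 and FeO 4 in turn. A replicate block gave 3, 2 and 1, and the block with the trend removed 1 in FeO. With the block alone, Kap in FeO and Miox between the models lost their calls (1.02 and 1.27, adjusted p = 0.177 and 0.0734 from edgeR), and no other call of the 6 genes changed. Single genes changed sign 9 times, and none of the values was called. Hnf4a in Spns1 KO was at 0.037 with all genes kept, 0.049 with the trend removed and -0.14 to 0.050 with 1 library left out, above 0 without Spns1 KO 2, Spns1 KO 4, WT 1 or WT 3. Miox in FeO was at -0.091 with the trend removed and -0.28 with block and trend, and Pax8 between the models ranged from -0.39 (without Spns1 KO 4) to 0.53 with 1 library left out. The cause of these changes was not tested. Of the counts of called genes among the 6 under alternatives, 53 stayed within 1.5 times of the values first given and 10 did not, and counts of the lists that moved are given with each list. At 528 counts or more per library, depth limits the 6 genes little beside the spread between libraries, but it limits list genes such as Acsm4, at most 0.389 CPM in FeO.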
